A study of Danio rerio with 12 samples.

Results

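Origin licensing was described through 10 genes, which are those of the 6 subunits of the origin recognition complex (*orc1* to *orc6*), *cdc6*, *cdt1*, *gmnn* (geminin) and *mcm10*. They were taken by gene name from the 32266 genes of the deposited count table, and all 10 were found, each under 1 identifier. The samples were heads of zebrafish larvae of the WIK strain at 5 days post fertilization (dpf), dissected through the hindbrain. The mutant larvae were rb1-/-, homozygous for the *rb1Δ7* frameshift allele in exon 2, and the wild-type larvae were their +/+ siblings from an incross of heterozygous adults. Each genotype had 3 libraries, each made from a pool of 5 heads, and every library was sequenced in 2 lanes, whose counts were summed. The *rb1* mutation was in the germline, so every cell of the mutant head carried it. RNA came from all cells of the head at once, so that more cells expressing a gene and more RNA per expressing cell cannot be told apart.

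The products of these genes prepare the sites at which DNA replication starts. The origin recognition complex (ORC) binds DNA, Cdc6 joins it, and Cdt1 brings the MCM helicase, which is loaded around the DNA in late mitosis and G1. Geminin binds Cdt1 and blocks further loading during S phase, G2 and mitosis, so that no stretch of DNA is copied again in the same cycle, and Mcm10 acts later, when the loaded helicase is switched on. In mammalian cells *ORC1*, *CDC6* and *CDT1* are known targets of E2F transcription factors, which the RB1 protein holds in check. In the wild-type head at 5 dpf most neurons are postmitotic, and cycling progenitors line the brain ventricles and the retinal margin. In mutant larvae of this age the study counted more mitotic cells than in the wild type, in sections of midbrain and retina.

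The 6 libraries held between 41065256 and 47700950 counts on genes. Expression is given as CPM, read counts brought to a common library size, after TMM scaling, edgeR's correction for library composition. The targeted gene *rb1* averaged 22.0 ± 4.36 CPM in the wild type and 10.3 ± 1.14 CPM in the mutant (SD, n = 3 each). Every mutant library was below every wild-type library, which was so for 13.2% of all genes tested. Its log2 fold change was -1.09 (standard error 0.16, edgeR adjusted p = 0.0121). It thus missed the study's limit of 0.01 in edgeR, which was not the tool the study used. In every licensing gene wild-type pool 1 was the highest and pool 3 the lowest wild-type library. Results are therefore also given with single libraries left out. Of the 8 cell type marker lists examined, none had a gene called under the study's threshold in edgeR. Only 0.897% of all genes were called higher there and 0.286% lower, so no called marker is near those shares. No listed marker was at 0 counts in all libraries. The summed markers of neurons were between 2433 and 3089 CPM in the mutant and between 2701 and 2972 in the wild type, and 0 of 8 passed an adjusted p of 0.05 in edgeR. Those of photoreceptors were between 8826 and 12069 in the mutant and between 11567 and 13534 in the wild type, with 2 of 6 lower at an adjusted p of 0.05 in edgeR. Those of macrophages and microglia were between 408.0 and 645.7 in the mutant and between 493.4 and 618.6 in the wild type, with 1 of 4 lower. Of all genes 2.17% were lower at that limit. The 5 markers of liver and pancreas, organs outside the head, summed to between 497.8 and 2277 CPM in the mutant and between 2221 and 2845 in the wild type, with 0 of 5 past 0.05.

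All 10 licensing genes had a higher mean in the mutant, by 1.31-fold for *gmnn* up to 2.82-fold for *cdc6*, with a median log2 fold change of 1.00 against -0.01 over all 22753 genes tested. In 9 of the 10 the lowest mutant library lay above the highest wild-type library, which was so for 16.1% of all genes tested. The study's threshold asked for an adjusted p no higher than 0.01 together with a 1.5-fold or larger change. The study applied it to results of DESeq2, a tool other than edgeR. None of the 10 passed it in edgeR's quasi-likelihood test with Benjamini-Hochberg adjustment, where 0.897% of all genes were called higher. All 10 were higher at an unadjusted p under 0.05 in this test, against 12.8% of all genes, and 0 were lower, against 10.5%. At an adjusted p of at most 0.05 in edgeR 6 of the 10 were higher, against 3.82% of all genes, and these were *orc2*, *orc3*, *orc5*, *orc6*, *cdc6* and *cdt1*. DESeq2, the tool the study used, was run here on the same summed counts. It called 8 of the 10 higher at the study's threshold, against 2.82% of the genes for which it gave an adjusted p, and left out *orc4* and *gmnn*. With a replicate block by pool number, edgeR called 1 of the 10, *cdc6*, against 0.747% of all genes, and at an adjusted p of at most 0.05 it had 9 of the 10 higher, against 5.1%. Without wild-type pool 1 edgeR called 4 of the 10, which were *cdc6*, *orc3*, *mcm10* and *orc6*, against 0.779%, and since that pool was the highest wild-type library in all 10 genes, leaving it out raises their differences by construction. Leaving out any other single library left 0 of the 10 called, against 0.135%, 0.61% and 0.583% of all genes without mutant pools 1, 2 and 3 and 0.00435% and 0.00434% without wild-type pools 2 and 3. Wild-type pool 3 was the lowest wild-type library in all 10 genes, so leaving it out lowers their differences by construction.

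**Figure D1:**
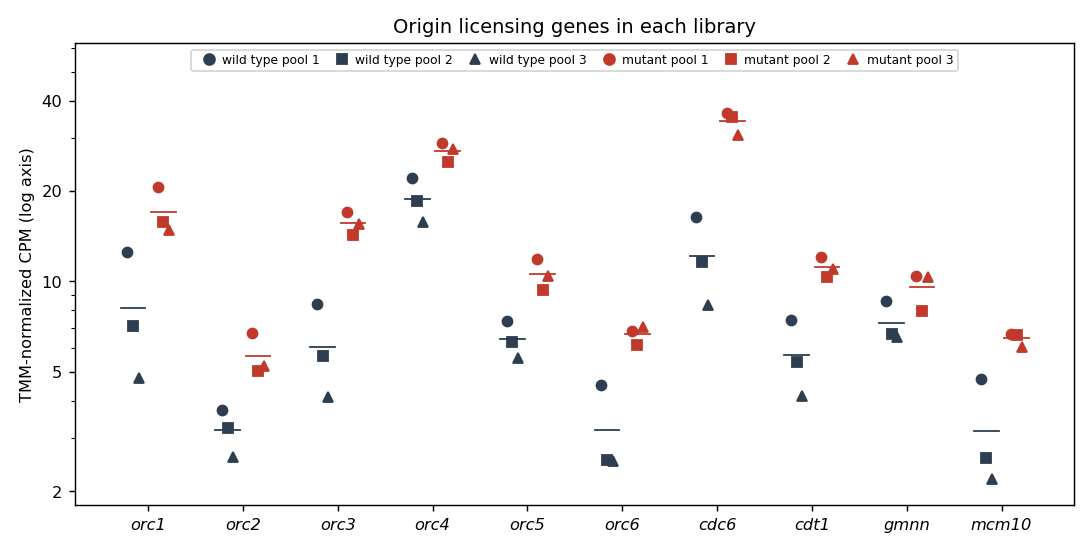
TMM-normalized CPM on a log axis for the 10 licensing genes in the 3 wild-type and 3 mutant libraries, with pools marked by shape and group means by lines. Only in *gmnn* did the genotypes overlap, and wild-type pool 1 was the highest wild-type library for all 10 genes.

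The ORC binds origins as a ring of subunits, of which Orc1 is the member whose level oscillates through the cell cycle in human cells. *orc1* was at 20.6, 15.8 and 14.8 CPM in mutant pools 1, 2 and 3 and at 12.5, 7.11 and 4.78 CPM in wild-type pools 1, 2 and 3. The genotypes did not overlap, but wild-type pool 1 lay closer to mutant pool 3 than to wild-type pool 2. The log2 fold change, mutant over wild type, was 1.07 (standard error, SE, 0.32, edgeR adjusted p = 0.0949), the largest standard error among the 10 genes. With 1 library left out it ran from 0.80 without wild-type pool 3 (edgeR adjusted p = 0.186), with 0.98 without wild-type pool 2 (edgeR adjusted p = 0.286), to 1.52 without wild-type pool 1 (edgeR adjusted p = 0.0203).

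Orc3 is a core subunit that binds directly to Orc2 in the ring. *orc3* was at 17.0, 14.3 and 15.5 CPM in mutant pools 1, 2 and 3 and at 8.41, 5.65 and 4.11 CPM in wild-type pools 1, 2 and 3. Every mutant library was far above the highest wild-type library, and the difference was the largest of the 6 ORC genes, at 1.36 on the log2 scale (SE 0.24, 2.57-fold, edgeR adjusted p = 0.0211). It was 1.68 without wild-type pool 1 (edgeR adjusted p = 0.00846), 1.15 without wild-type pool 3 (edgeR adjusted p = 0.0448) and 1.31 without wild-type pool 2 (edgeR adjusted p = 0.111). *orc2*, for its partner, was at 6.74, 5.03 and 5.21 CPM in the mutant pools and at 3.73, 3.25 and 2.60 CPM in the wild-type pools. The groups did not overlap here either, and the log2 fold change was 0.82 (SE 0.19, edgeR adjusted p = 0.0458).

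*orc4* and *orc5* encode further ATPase-type core subunits, and their differences were the smallest of the ORC genes. *orc4* was at 28.9, 25.0 and 27.6 CPM in mutant pools 1, 2 and 3 and at 22.1, 18.5 and 15.8 CPM in the wild-type pools. The lowest mutant library lay only just above the highest wild-type library, and the log2 fold change of 0.53 (SE 0.14, 1.45-fold, edgeR adjusted p = 0.0649) was under the 1.5-fold limit. *orc5* was at 11.9, 9.34 and 10.4 CPM in the mutant pools and at 7.40, 6.28 and 5.56 CPM in the wild-type pools. All of its mutant values lay above its wild-type values, and its log2 fold change was 0.72 (SE 0.15, edgeR adjusted p = 0.0362).

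Orc6 is the smallest subunit and the one least tightly held in the human complex. *orc6* was at 6.82, 6.13 and 7.02 CPM in mutant pools 1, 2 and 3 and at 4.50, 2.55 and 2.53 CPM in the wild-type pools. Wild-type pools 2 and 3 were nearly equal and pool 1 was well above them, while the mutant pools differed little. The log2 fold change was 1.06 (SE 0.23, edgeR adjusted p = 0.0433), with 1.39 without wild-type pool 1 (edgeR adjusted p = 0.00902), 0.91 without wild-type pool 3 (edgeR adjusted p = 0.133) and 0.92 without wild-type pool 2 (edgeR adjusted p = 0.174).

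*cdc6*, for the ATPase that joins ORC to load the helicase, showed the largest difference of the 10 genes. It was at 36.5, 35.2 and 30.8 CPM in mutant pools 1, 2 and 3 and at 16.4, 11.6 and 8.31 CPM in wild-type pools 1, 2 and 3. The lowest mutant library stood well above the highest wild-type library. The log2 fold change was 1.5 (SE 0.23, 2.82-fold, edgeR adjusted p = 0.0128), just above the limit of 0.01. It passed with the replicate block, where the log2 fold change was 1.54 (edgeR adjusted p = 0.00782), and without wild-type pool 1, at 1.78 (edgeR adjusted p = 0.00741). It did not pass when any other single library was left out, with 1.28 without wild-type pool 3 (edgeR adjusted p = 0.0267) and 1.46 without wild-type pool 2 (edgeR adjusted p = 0.0774) and 1.45 without mutant pool 1 (edgeR adjusted p = 0.0621).

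*cdt1*, for the factor that brings the helicase to ORC and Cdc6, was at 12.1, 10.3 and 11.0 CPM in mutant pools 1, 2 and 3 and at 7.45, 5.40 and 4.16 CPM in wild-type pools 1, 2 and 3. Its genotypes did not overlap, and its log2 fold change was 0.97 (SE 0.21, 1.96-fold, edgeR adjusted p = 0.0376). *gmnn*, for the inhibitor of Cdt1, was at 10.4, 7.98 and 10.3 CPM in the mutant pools and at 8.63, 6.68 and 6.53 CPM in the wild-type pools. Mutant pool 2 lay below wild-type pool 1, so that *gmnn* was the only one of the 10 genes whose genotypes overlapped. Its log2 fold change was 0.39 (SE 0.16, edgeR adjusted p = 0.203), the smallest of the 10, and its adjusted p stayed between 0.107 and 0.480 over all alternatives, DESeq2 included. At this spread a difference in *gmnn* was not shown, and its absence was not shown either.

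*mcm10*, for the factor that acts when the loaded helicase is switched on, was at 6.70, 6.63 and 6.05 CPM in mutant pools 1, 2 and 3 and at 4.72, 2.58 and 2.20 CPM in the wild-type pools. The SD of the mutant libraries was 5.56% of their mean, and that of the wild-type libraries 43.0%. The log2 fold change was 1.03 (SE 0.27, edgeR adjusted p = 0.0704), with 1.43 without wild-type pool 1 (edgeR adjusted p = 0.00915), 0.82 without wild-type pool 3 (edgeR adjusted p = 0.174) and 0.90 without wild-type pool 2 (edgeR adjusted p = 0.242). It had between 99 and 331 counts per library, the lowest value of any licensing gene in a library, and 99 counts carry a counting error of 10.1%, well below the spread between the wild-type pools.

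**Figure D2:**
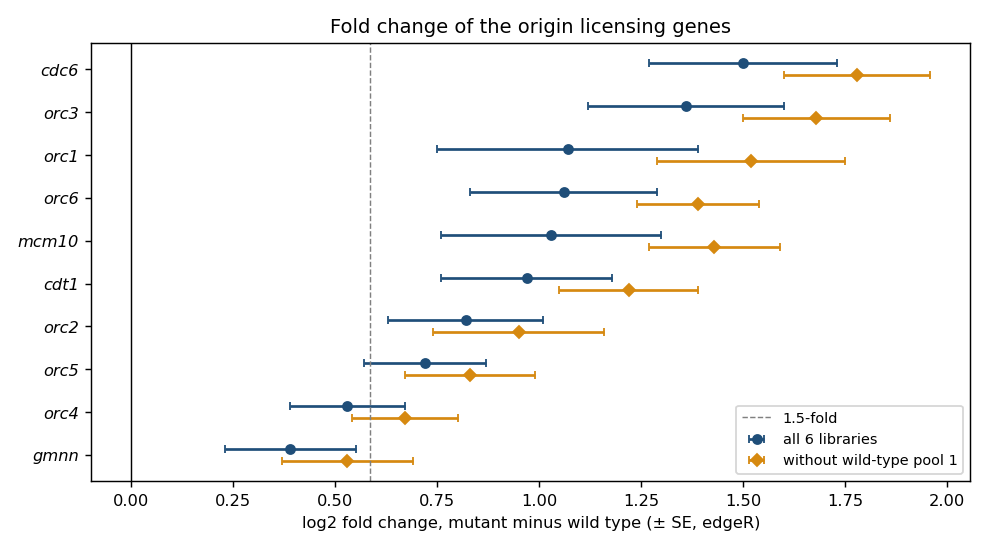
Log2 fold change of each licensing gene, mutant minus wild type, with its standard error from edgeR, over all 6 libraries and without wild-type pool 1, and a dashed line at 1.5-fold. Since that pool was the highest wild-type library in every gene, leaving it out raises each estimate by construction, to between 0.53 for *gmnn* and 1.78 for *cdc6*.

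The order of the wild-type pools was the same in every licensing gene, with pool 1 highest and pool 3 lowest, but their spacing differed. Pools 1, 2 and 3 were at 16.4, 11.6 and 8.31 CPM in *cdc6*, and at 4.50, 2.55 and 2.53 CPM in *orc6*. In *gmnn* pools 2 and 3 were at 6.68 and 6.53 CPM. The order of pools 2 and 3 in *orc6* and *gmnn* lay within counting error, which was 9.9% and 6.12% at their fewest counts. It was not firm in *mcm10* and *orc5* either. There pools 2 and 3 were at 2.58 and 2.20 CPM and at 6.28 and 5.56 CPM, with counting errors of 10.1% and 6.32% at their fewest counts. The share of all genes with pool 3 lowest was not computed. Wild-type pool 1 was the highest wild-type library in 10 of the 10 genes, against 36.1% of all genes tested. It exceeded the mean of pools 2 and 3 by between 0.33 on the log2 scale in *orc5* and 1.1 in *orc1*, with a median of 0.70, while the median over all genes was 0.00. In 6 of the 10 the excess was at least 1.5-fold, against 5.16% of all genes. Averaged over the 10 genes, log2 CPM was 3.04 in wild-type pool 1, 2.53 in pool 2 and 2.24 in pool 3, and between 3.49 and 3.73 in the mutant pools. The mutant pools thus differed less among themselves, although mutant pool 1 was the highest mutant library in 9 of the 10 genes, against 23% of all genes.

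Genes of cycling cells, most of which act in mitosis, served as a comparison. The 7 markers *mki67*, *top2a*, *aurkb*, *plk1*, *ccnb1*, *bub1* and *tpx2* had a median log2 fold change of 1.11, close to that of the licensing genes. All 7 rose at the study's threshold (edgeR adjusted p between 0.00106 and 0.00731), against 0.897% of all genes. With the replicate block 6 of the 7 were called, all but *top2a*, against 0.747% of all genes. Without wild-type pool 2 or wild-type pool 3 none was. These fits called only 1 gene each as higher, 0.00435% and 0.00434% of all genes, so the loss is not particular to the markers. Wild-type pool 1 exceeded the mean of pools 2 and 3 by between 0.03 and 0.25 on the log2 scale in these markers, less than in any licensing gene. It was the highest wild-type library in 6 of the 7. The mean log2 CPM of the licensing genes minus that of the markers was -2.80, -3.00 and -2.98 in mutant pools 1, 2 and 3 and -2.51, -2.88 and -3.14 in wild-type pools 1, 2 and 3. The genotypes overlapped fully in this measure, and its difference of -0.09 was smaller than the spread of the wild type (two-sided exact permutation test, p = 0.8, a measure chosen after the values were seen). The part of cycling cells in the difference of the licensing genes was not tested. The 5 markers of radial glia and neural progenitors summed to between 506.3 and 529.3 CPM in the mutant and between 436.7 and 506.8 CPM in the wild type. Wild-type pool 1 was the highest of its group, and 0 of the 5 passed an adjusted p of 0.05 in edgeR. The 4 erythroid markers summed to between 64.4 and 135.6 CPM in the mutant and between 47.5 and 67.9 CPM in the wild type. At an adjusted p of 0.05 in edgeR 2 of the 4 were higher, against 3.82% of all genes. The part of these cells in the result was not tested either.

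**Figure D3:**
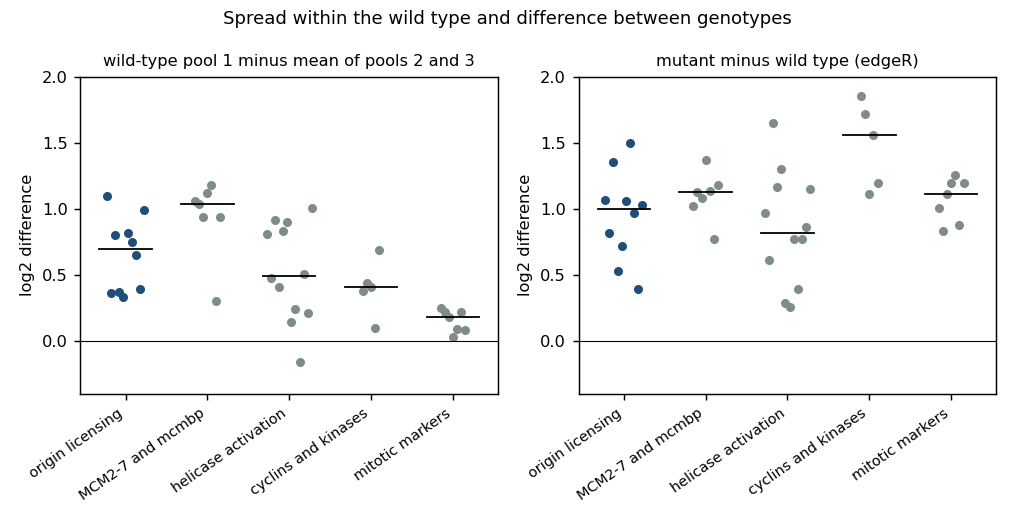
Left, log2 CPM of wild-type pool 1 minus the mean of wild-type pools 2 and 3 for each gene of 5 lists, and right, the log2 fold change of the same genes between genotypes, with medians as lines. The licensing genes had medians of 0.70 and 1.00 and the mitotic markers medians of 0.18 and 1.11.

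Levels of different genes were compared per length, as FPKM (CPM per kilobase of exon), computed as TMM-normalized CPM divided by the exon lengths of the deposited table. In the wild type *orc4* was the highest, at 11.2 ± 1.88 FPKM (SD, n = 3), above *cdc6* at 5.47 ± 1.85 without overlap. *orc5* at 3.84 ± 0.556 and *gmnn* at 3.73 ± 0.600 followed and did not differ beyond their spread. *orc3*, *orc2*, *orc1* and *cdt1* lay together between 2.33 and 2.42 FPKM, again within their spread. Lowest were *mcm10* at 1.12 ± 0.479 and *orc6* at 1.00 ± 0.355, which did not overlap with *cdt1*. Both overlapped with *orc1*, which was at 1.38 in wild-type pool 3, against 1.66 for *mcm10* and 1.41 for *orc6* in pool 1. *mcm10* also overlapped with *orc3*, which was at 1.64 in pool 3. In the mutant *orc4* at 16.2 ± 1.18 and *cdc6* at 15.4 ± 1.35 FPKM (SD, n = 3) overlapped, and both were above all other licensing genes. *orc5* at 6.32 ± 0.763 and *orc3* at 6.22 ± 0.535 came next, then *orc1*, *gmnn*, *cdt1* and *orc2* between 4.20 and 4.95 with overlap between neighbours, and *mcm10* at 2.28 ± 0.127 and *orc6* at 2.09 ± 0.145 were again the lowest.

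**Figure D4:**
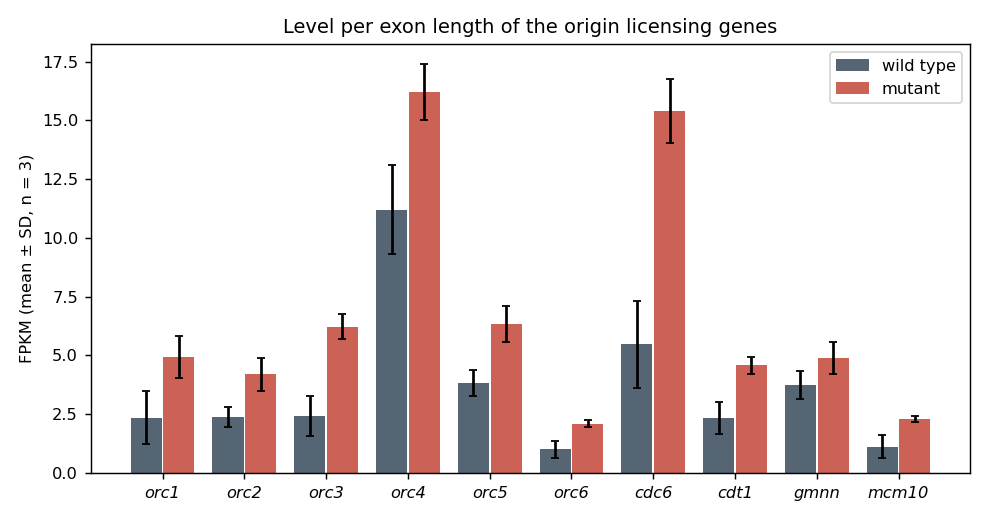
Mean FPKM of each licensing gene in the wild type and the mutant, with the SD over 3 libraries as error bars. *cdc6* was at 5.47 FPKM in the wild type and 15.4 in the mutant, and *orc4* at 11.2 and 16.2.

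The levels of the ORC genes spanned a narrower range in the mutant. The highest, *orc4*, was 11.2-fold above the lowest, *orc6*, in the wild type and 7.75-fold above it in the mutant. The size of these folds depends on the deposited exon lengths, 1682 bases for *orc4* and 3190 for *orc6*. Before division by length, *orc4* and *orc6* averaged 18.8 and 3.2 CPM in the wild type and 27.2 and 6.66 CPM in the mutant. The SD of log2 FPKM over the 6 subunits within a library was 0.97, 0.96 and 0.97 in mutant pools 1, 2 and 3 and 1.05, 1.24 and 1.23 in wild-type pools 1, 2 and 3. The groups did not overlap, and the two-sided exact permutation test gave p = 0.1, which 3 against 3 cannot go below, on a measure chosen after the values were seen.

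Ratios within a library compared partners with each other, independently of the scaling between libraries. The log2 ratio of *cdt1* to its inhibitor *gmnn* was 0.22, 0.37 and 0.10 in mutant pools 1, 2 and 3 and -0.21, -0.31 and -0.65 in wild-type pools 1, 2 and 3. The ratio was higher by 0.62 in the mutant, with *cdt1* the more counted gene in every mutant library and *gmnn* in every wild-type library. Per exon length the means did not change order. *gmnn* was at 4.89 and *cdt1* at 4.57 FPKM in the mutant, and at 3.73 and 2.33 FPKM in the wild type. Only in mutant pool 2 was *cdt1* above *gmnn* per length, at 4.23 against 4.09 FPKM. The log2 ratio of *cdc6* to the mean of the core subunits *orc2* to *orc5* was 1.37, 1.63 and 1.32 in the mutant pools and 0.96, 0.77 and 0.59 in the wild-type pools, higher by 0.67 in the mutant and again without overlap. For both ratios the two-sided exact permutation test gave the least p possible here, 0.1, and an adjusted p of 0.2 over the 4 ratios examined. The other ratios, of *orc1* and *orc6*, overlapped between genotypes. Against the same core mean, the log2 ratio of *orc1* was 0.43 ± 0.146 (SD, n = 3) in the mutant and 0.14 ± 0.389 in the wild type (exact permutation p = 0.4, adjusted p = 0.4), and that of *orc6* was -0.92 ± 0.117 in the mutant and -1.15 ± 0.252 in the wild type (exact permutation p = 0.2, adjusted p = 0.267).

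**Figure D5:**
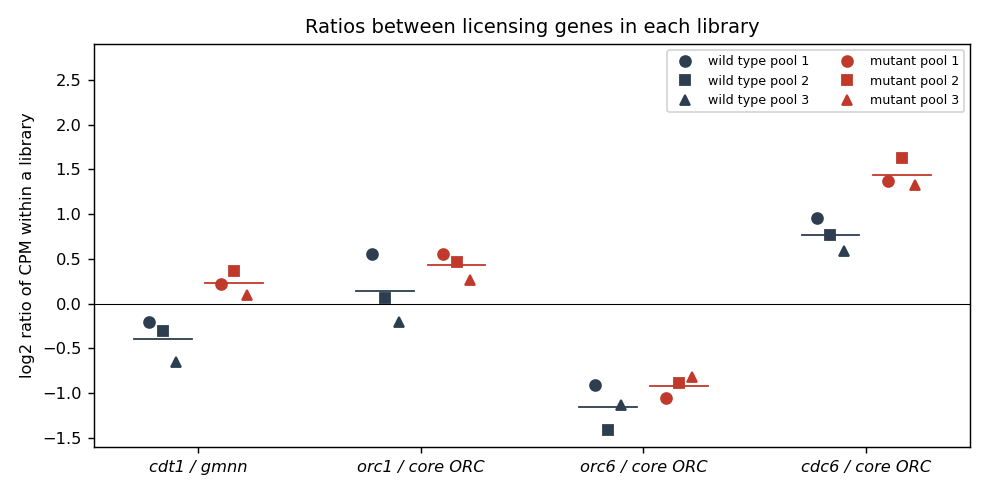
Log2 ratio of CPM within each library for *cdt1* to *gmnn* and for *orc1*, *orc6* and *cdc6* to the mean of *orc2*, *orc3*, *orc4* and *orc5*, with pools marked by shape and group means by lines. The genotypes separate for *cdt1* to *gmnn* and for *cdc6*, and overlap for *orc1* and *orc6*.

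The genes that act directly before and after these steps were described from lists of pathway members. The list of the MCM2-7 helicase, which licensing loads, and its binding protein *mcmbp* had a median log2 fold change of 1.13. In 7 of 7 genes the genotypes did not overlap and the mutant was above, against 16.1% of all genes. None of the 7 passed the study's threshold in edgeR, against 0.897% of all genes called higher. In edgeR 7 were higher at an unadjusted p under 0.05, against 12.8%, and 3 at an adjusted p of at most 0.05, against 3.82%. DESeq2 called all 7, against 2.82% of the genes for which it gave an adjusted p. Without wild-type pool 1 edgeR called 2, *mcm5* and *mcmbp*, against 0.779%. *mcm5* had the largest difference, from 43.5 ± 21.6 CPM (SD, n = 3) in the wild type to 112.7 ± 12.3 in the mutant (log2 fold change 1.37, SE 0.32, edgeR adjusted p = 0.0494), and *mcm7* the smallest (log2 fold change 0.77, SE 0.14, edgeR adjusted p = 0.0243). Wild-type pool 1 exceeded the mean of the other wild-type pools by a median of 1.04 on the log2 scale in this list.

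Helicase activation needs Cdc45, GINS, the kinase Cdc7 with Dbf4 and factors such as Treslin (*ticrr*) and TopBP1. Of 12 such genes tested, none was called in edgeR, against 0.897% of all genes called higher. In edgeR 10 were higher at an unadjusted p under 0.05, against 12.8%, and 5 at an adjusted p up to 0.05, against 3.82%. The median log2 fold change was 0.82. DESeq2 called 7 of them, against 2.82%, and edgeR without wild-type pool 1 called *gins2* and *gins4*, against 0.779%. edgeR called *topbp1* with the replicate block, against 0.747%, and also without a filter on low counts. The log2 fold change was 1.65 for *gins2* (SE 0.28, edgeR adjusted p = 0.0195), the largest, and 0.86 for *topbp1* (SE 0.13, edgeR adjusted p = 0.0124). The kinase that starts the step had the smallest values, with 0.29 for *cdc7* (SE 0.28, edgeR adjusted p = 0.589) and 0.26 for *dbf4* (SE 0.15, edgeR adjusted p = 0.330).

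In the list for the ubiquitin ligases that remove licensing factors, log2 fold changes ran from -0.19 to 1.55, with a median of 0.17. Of 13 listed genes none was called in edgeR, against 0.897% of all genes called higher. In edgeR 6 were higher at an unadjusted p under 0.05, against 12.8%, and 4 at an adjusted p up to 0.05, against 3.82%. At either limit 0 were lower, against 10.5% and 2.17%. DESeq2 called 4 of them, against 2.82%. Without wild-type pool 1 edgeR called 2, against 0.779%. These were *dtl* and *pcna*, for the sliding clamp on which Cdt1 is marked for destruction. *dtl*, the substrate receptor that directs Cdt1 destruction in S phase, averaged 3.82 ± 2.04 CPM in the wild type and 11.2 ± 1.27 in the mutant (SD, n = 3 each). Its log2 fold change was 1.55 (SE 0.33, edgeR adjusted p = 0.0386). *skp2*, the receptor of the SCF ligase that also acts on Cdt1, had a log2 difference of 1.00 (SE 0.18, edgeR adjusted p = 0.0245) and its partner *cks1b* 0.87 (SE 0.15, edgeR adjusted p = 0.0195). The scaffold and adaptor genes of the *dtl* ligase had values near 0. *ddb1* had 0.13 (SE 0.09, edgeR adjusted p = 0.413) and *cul4b* -0.04 (SE 0.09, edgeR adjusted p = 0.859). *cul4a* had -0.16 (SE 0.08, edgeR adjusted p = 0.276). At an unadjusted p under 0.05 in edgeR *rbx1* and *cul1a* were also higher. Their log2 fold changes were 0.31 (SE 0.10, edgeR adjusted p = 0.106) and 0.28 (SE 0.08, edgeR adjusted p = 0.0912). *fzr1b*, an activator of the ligase that removes geminin, was lowest at -0.19 (SE 0.09, edgeR adjusted p = 0.255).

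Cyclins and kinases that control licensing were the only one of these pathway lists with genes called in the main edgeR fit. That fit used all 6 libraries, the default low-count filter and no replicate block. Of 5 tested, 4 rose at the study's threshold in edgeR, against 0.897% of all genes, and also with the replicate block, against 0.747%. DESeq2 called *cdk2* as well, 5 in all, against 2.82%. The median pool 1 excess in the wild type was 0.41 on the log2 scale in this list. It was 0.49 for helicase activation, -0.03 for licensing factor turnover and -0.08 for the chromatin partners of ORC. Without wild-type pool 2 or wild-type pool 3 none of the 4 cyclins and kinases was called. These fits called only 1 gene each as higher, 0.00435% and 0.00434% of all genes, so the loss is not particular to this list. Without mutant pool 1 *cdk1* alone was called, against 0.135% of all genes, and without mutant pool 3 all but *ccna2*, against 0.583%. *ccne1* and *ccne2*, for cyclin E, which promotes entry into S phase, had log2 fold changes of 1.86 (SE 0.19, edgeR adjusted p = 0.00362) and 1.72 (SE 0.15, edgeR adjusted p = 0.00212). *cdk1*, the mitotic kinase, rose by 1.56 on the log2 scale (SE 0.10, edgeR adjusted p = 0.00095), and *ccna2* by 1.11 (SE 0.13, edgeR adjusted p = 0.00505). *cdk2*, the partner of cyclin E, was higher in every mutant library than in any wild-type library and missed the threshold in edgeR, with 1.20 (SE 0.23, edgeR adjusted p = 0.0272).

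Among the chromatin partners of ORC, 0 of 5 were called in edgeR, against 0.897% of all genes called higher. In edgeR 4 were higher at an unadjusted p under 0.05, against 12.8%. DESeq2 and edgeR with the replicate block each called 1, *kmt5ab*, against 2.82% and 0.747%. The median log2 fold change was 0.38. *kmt5ab*, for a histone H4 methyltransferase, had 0.90 (SE 0.15, edgeR adjusted p = 0.0171), and its paralog *kmt5aa* 0.24 (SE 0.08, edgeR adjusted p = 0.120). *lrwd1*, for a protein that holds ORC on chromatin, had 0.87 (SE 0.27, edgeR adjusted p = 0.105). *kat7a*, for the acetyltransferase that binds Orc1 and Cdt1 in human cells, had 0.00 (SE 0.12, edgeR adjusted p = 0.988), whereas *kat7b* had 0.38 (SE 0.08, edgeR adjusted p = 0.0346). *gmnc*, the geminin relative of multiciliated cells, averaged 0.515 ± 0.0657 CPM in the wild type and 0.854 ± 0.219 in the mutant (SD, n = 3 each), with an edgeR adjusted p of 0.147.

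Profiles most like those of *cdc6* and *gmnn*, the genes with the largest and the smallest difference, were searched among 20014 genes with a symbol and a mean of at least 1 CPM. Likeness was the root mean square difference between log2(CPM + 1) profiles over the 6 libraries, each centred on its own mean. The nearest to *cdc6* were *nasp*, a histone chaperone, at 0.0899, *dnph1*, a nucleotide hydrolase, at 0.0968 and *slc29a2*, a nucleoside transporter, at 0.0999. They had log2 fold changes of 1.42 for *nasp* (edgeR adjusted p = 0.00932), 1.53 for *dnph1* (edgeR adjusted p = 0.0177) and 1.42 for *slc29a2* (edgeR adjusted p = 0.00462). The nearest to *gmnn* were *cyyr1* at 0.0140, *mrpl40*, a mitochondrial ribosomal protein gene, at 0.0204 and *mon1a* at 0.0326, with log2 fold changes between 0.34 and 0.38. Since likeness was measured over the same 6 libraries, fold changes close to those of *cdc6* and *gmnn* follow from the search and are no separate result.

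Reads from bases shared by exons of overlapping genes cannot be told apart without strand, which this library kit does not record. In the RefSeq annotation of the GRCz12tu assembly, 5 of the 10 gene spans, introns included, overlap another gene. Whether their exons overlap was not examined. The partners of *orc1*, *orc5*, *orc6* and *cdt1* are *mpl*, *lhfpl3*, *mylk3* and *aprt*, with 589, 54153, 5002 and 130 bases of shared span. None of these partners had an adjusted p of at most 0.05 in edgeR, and their log2 fold changes were -0.60 for *mpl*, -0.11 for *lhfpl3*, -0.36 for *mylk3* and 0.24 for *aprt*. *mcm10* shares 18465 bases of span with a long noncoding RNA, which was not analysed here. *orc2*, *orc3*, *orc4*, *cdc6* and *gmnn* have no overlapping gene there.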

How the data were processed

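RNA-Seq libraries were made with a poly(A) kit that does not record strand and sequenced as 50 bp single-end reads. Alignment to GRCz10 was done by the authors with GSNAP and counting of unique alignments per gene with HTSeq, whose strand setting is not given in the sources used here, and the authors deposited raw counts for each of 12 lanes. The authors also deposited FPKM values, of which only the exon lengths were used, after a check that all 12 columns follow from the counts to within a relative difference of 1.11e-07. The deposited table of the authors' DESeq2 comparison was not used.

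Lanes of a library differed by no more than sampling noise (chi-square per degree of freedom between 0.9914 and 1.014, against at least 18.24 between libraries of a genotype) and were summed, so n is 3 per genotype. Totals per library were between 41065256 and 47700950 counts. Genotypes were compared with edgeR 4.0.16 in R 4.3.3 (quasi-likelihood test on genotype, TMM, default low-count filter), with Benjamini-Hochberg adjusted p-values over 22753 genes, and the script was tested on simulated data. DESeq2 1.42.0, other scalings and filters, and each library left out in turn were alternatives. Ratios were tested with exact permutation tests in scipy 1.17.1. Standard errors (SE) were derived from the F statistic, as log2 fold change over √F in absolute value.

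Pool numbers come from the sample labels. Same-numbered pools of both genotypes, which are different animals, deviated together from their group means (correlations across genes of 0.412, 0.495 and 0.245). Between pools of unlike number the correlations ran from -0.422 to 0.111. Deviations sum to 0 within a genotype, so these correlations are not independent of each other. Fits with a replicate block, by pool number, were therefore run. The libraries are separate pools of siblings.

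The genes and lists were chosen with earlier results of these data known. Named are all 10 licensing genes, *rb1*, and in each list of other pathway genes up to 4 called genes and the gene with the smallest change. The other listed genes named and the choice of *cdc6* and *gmnn* for the profile search, which the rule reserved for called licensing genes, were made after the values had been seen, as were the limit of 0.05 for the adjusted p and the comparison of spread between ORC genes. Gene names that differ from the table's were matched by the reference tables, *ccna1* did not pass the low-count filter, and *donson* and *mcidas* were not analysed here.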

Additional observations from a re-analysis of the deposited data

How the results depend on the processing

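The number of licensing genes called at the study's threshold was 0 with TMM, DESeq2 size factors, upper quartile scaling, TMM without the 10 most counted genes and a filter of 1 CPM in 3 libraries. It was 1 (*cdc6*) without a filter on low counts, 1 (*cdc6*) with the replicate block by pool number, and 8 with DESeq2, the tool the study used. With 1 library left out it was between 0 and 4, and only the fit without wild-type pool 1 gave more than 0. At an adjusted p of at most 0.05 with no minimum fold, limits chosen after seeing the data, it was 6, and 9 with the replicate block. The cause of these differences was not tested. No gene changed sign under any alternative. The median log2 fold change of the licensing genes was 0.99 with DESeq2 and 1.05 with the replicate block, and between 0.80 and 1.3 with 1 library left out. The log2 ratio of *cdt1* to *gmnn* differed by between 0.49 and 0.71 and that of *cdc6* to the core subunits by between 0.57 and 0.76 with 1 library left out, where an exact permutation test cannot go below p = 0.2. Paired by pool number, the mutant had the higher value of both ratios in 3 of 3 pairs (p = 0.25 by an exact permutation of signs, the least that 3 pairs can give). The ratio of *orc1* to the core subunits differed by between 0.12 and 0.50 and that of *orc6* by between 0.10 and 0.35. Counting error was largest in *mcm10*, *orc6* and *orc2*, which had as few as 99, 102 and 117 counts in a library. At these counts it was 10.1%, 9.9% and 9.25%, below the SD of the wild-type libraries, at 43.0%, 35.4% and 17.8% of their mean.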
